A study of Mus musculus with 12 samples.

Results

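Hdc, which encodes histidine decarboxylase, was examined with 5 genes of histamine biology in the E15.5 mouse ovary: the histamine-degrading enzyme gene Hnmt, the receptor genes Hrh1 and Hrh2, and the mast cell protease genes Cpa3 and Mcpt4. These 6 genes were picked by symbol from the 54532 genes of the count table, with earlier results of these data known. Hdc was chosen on its measured rise after dexamethasone (dex) in both sorted cell types. Its dex effect is therefore given as a description with no test. Bulk RNA-seq had been performed on cells sorted from female embryos carrying the transgene Tg(Pou5f1-EGFP)2Mnn, in which regulatory sequence of Pou5f1 drives GFP in germ cells. The GFP+ germ cells and the GFP– cells, called somatic, were compared after the pregnant dams had been given 10 µg dex per g of body weight, or saline, in daily intraperitoneal injections beginning at E12.5 and ending at E15.5 (E13.5 and E14.5 between). Dex is a synthetic agonist of the glucocorticoid receptor. All embryos carried the transgene, and no untreated or uninjected group was part of the design. Each of the 4 groups (germ saline, germ dex, somatic saline, somatic dex) held 3 libraries, each pooled from the embryos of several litters, and the somatic fraction was defined only by the lack of GFP, so it mixed supporting, stromal, vascular and blood cells.

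Histamine is made from histidine in a single step by histidine decarboxylase, an enzyme that uses pyridoxal phosphate. Mast cells store it in granules together with proteases such as carboxypeptidase A3 (Cpa3), chymases (Cma1, Mcpt4) and tryptases (Tpsb2, Tpsab1), while basophils and certain gastric and brain cells also make it. Once released it acts on G protein-coupled receptors, and it is inactivated inside cells by methylation through histamine N-methyltransferase (Hnmt) or outside them by diamine oxidase.

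The 250 bases upstream of the RefSeq start are shown for the 2 members with the highest counts, Hdc and Cpa3. Both sequences are from RefSeq on GRCm38.p6 and run 5′ to 3′ on the minus strand, which both genes are read from. For Hdc the window is chr2:126618679-126618928, inside the annotated gene and in an intron of the longer transcript Hdc-205. For Cpa3 it is chr3:20242182-20242431, upstream of every annotated transcript of the gene. Capitals mark TGTTCT, a half-site letter pattern of the glucocorticoid receptor, and GATAA, a pattern of GATA factors, each searched on both strands, and the 2 patterns did not overlap.
Hdc: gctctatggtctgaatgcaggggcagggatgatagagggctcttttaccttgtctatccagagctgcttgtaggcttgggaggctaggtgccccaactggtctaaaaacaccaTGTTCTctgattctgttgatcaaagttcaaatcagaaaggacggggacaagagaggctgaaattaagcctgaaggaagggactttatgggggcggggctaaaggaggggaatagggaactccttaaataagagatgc
Cpa3: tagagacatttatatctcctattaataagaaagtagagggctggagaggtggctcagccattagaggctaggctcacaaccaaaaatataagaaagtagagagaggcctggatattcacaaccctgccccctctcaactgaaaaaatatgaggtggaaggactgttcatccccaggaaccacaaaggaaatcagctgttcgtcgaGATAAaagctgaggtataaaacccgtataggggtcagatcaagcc
The Hdc window held TGTTCT once, beginning 137 bases before the start, and no GATAA. The Cpa3 window held GATAA once, beginning 45 bases before the start, and no TGTTCT. Of the 32851 RefSeq windows of the same length, 16.1% held TGTTCT on either strand and 22.6% held GATAA. All 6 members had an entry, with 10 windows in all because Hrh1 and Hrh2 have several starts. TGTTCT was in 2 of these 10 windows (Hdc and 1 of the Hrh1 starts), and GATAA in 5 (Cpa3, Mcpt4 and 3 of the Hrh1 starts). These matches describe the letters only.

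The 12 libraries held 14658503 to 18245507 counts. Levels are in CPM, the library-scaled count after TMM scaling, and 3 counts in a library, taken here as the floor of detection, equalled 0.169 to 0.201 CPM. Of 8 germ cell genes, 7 were higher in the germ libraries after either treatment (edgeR, adjusted p at most 0.05). The remaining gene, Dnd1, passed as lower in germ cells after saline (1.95 against 3.21 CPM) and did not pass after dex. The 7 stromal genes summed to 118 to 249 CPM in the germ libraries and 19229 to 25060 CPM in the somatic libraries. The known dex target Per1 rose in both fractions, from 14.3 ± 1.27 to 53.7 ± 12.6 CPM in germ cells and from 82.9 ± 6.19 to 267 ± 37.1 CPM in somatic cells (mean ± SD, n = 3 libraries, edgeR BH-adjusted p = 0.000905 and 2.24e-07). Fkbp5, another such target, rose in somatic cells from 129 to 316 CPM (edgeR BH-adjusted p = 2.61e-07) and in germ cells was at 81.1 and 101.6 CPM (edgeR BH-adjusted p = 0.162).

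Hdc was the only gene of histamine synthesis examined, and the plot of the members by library gives its values. The gene (ENSMUSG00000027360) lies on chromosome 2 from 126593667 to 126619299, minus strand, GRCm38. In somatic cells it stood at 19.1, 23.1 and 23.7 CPM in saline replicates 1, 2 and 3, and at 90.7, 139.7 and 69.1 CPM in dex replicates 1, 2 and 3. All 3 dex libraries lay above all 3 saline libraries, and replicate 3 was the lowest of them. In germ cells Hdc stood at 3.75, 1.75 and 5.20 CPM after saline and at 17.5, 28.9 and 9.39 CPM after dex. These groups also did not overlap, and replicate 2 was the highest dex library in both fractions.

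**Figure D1:**
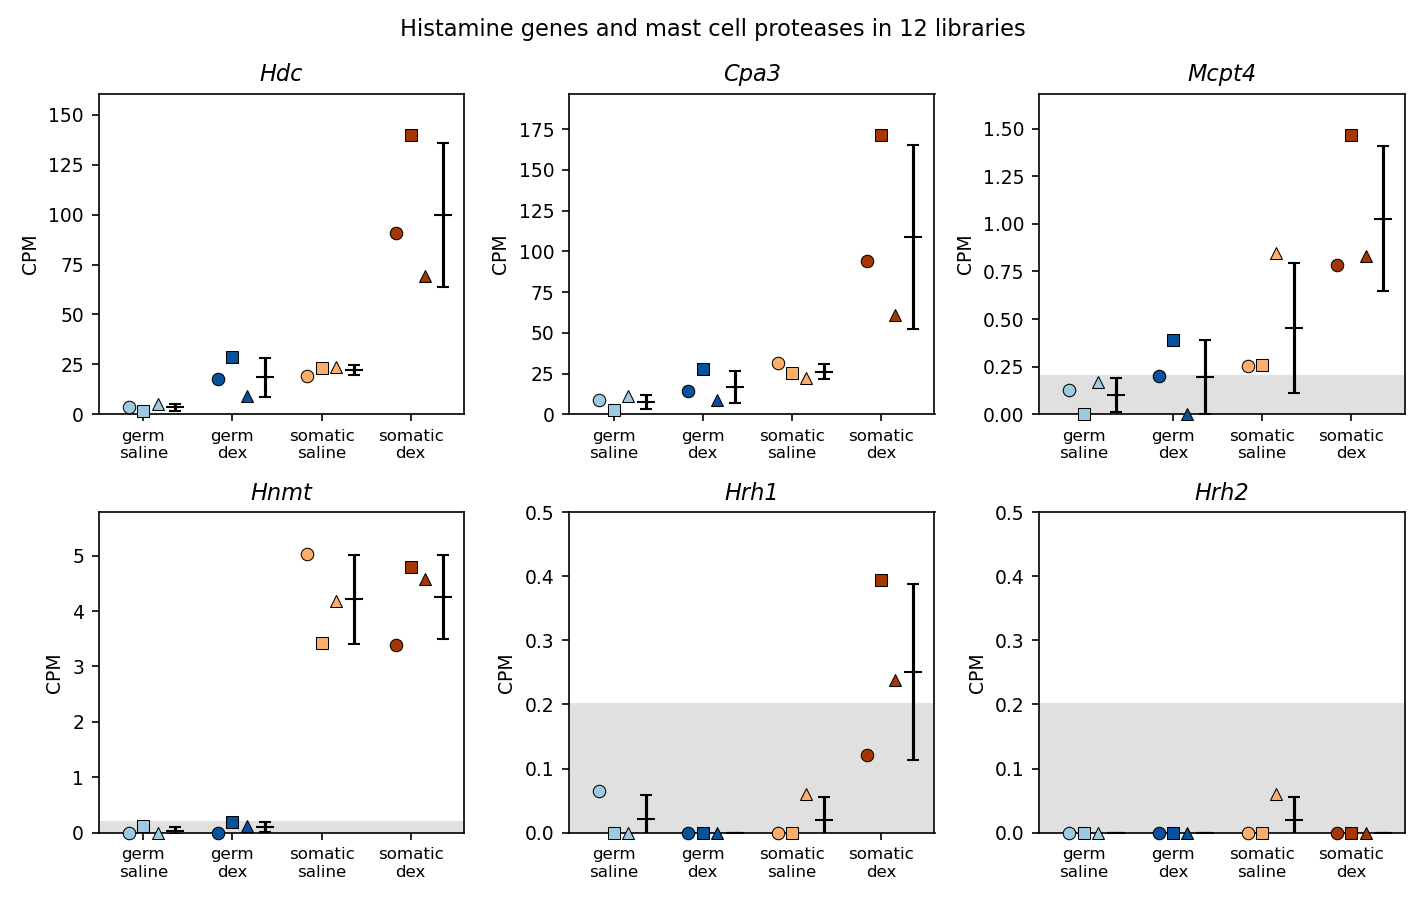
Level (CPM, linear axes from 0, one scale per gene) of the 6 members in each of 12 libraries, with circles, squares and triangles for replicates 1, 2 and 3, black dashes and bars for the mean ± SD (n = 3), and grey for levels at or under the 3-count floor (up to 0.201 CPM). Hdc reached 69.1 to 139.7 CPM in somatic dex libraries against 19.1 to 23.7 CPM after saline, Hnmt was seen mainly in somatic cells at like levels after both treatments, and Hrh2 lay at or near 0 throughout.

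The group means of Hdc were 22.0 ± 2.53 and 99.9 ± 36.2 CPM in somatic cells after saline and dex, and 3.57 ± 1.73 and 18.6 ± 9.80 CPM in germ cells (SD, n = 3). The log2 fold change of dex against saline was 2.18 (SE 0.21, 4.55-fold) in somatic cells and 2.39 (SE 0.41, 5.23-fold) in germ cells. The effect in germ cells minus that in somatic cells was 0.19 on the log2 scale (SE 0.50). This difference was smaller than its standard error, and its sign depended on single libraries, being -0.27 without germ dex replicate 2. Ordered by mean, germ saline was lowest, germ dex and somatic saline overlapped in range (9.39 to 28.9 against 19.1 to 23.7 CPM), and somatic dex was highest.

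Hdc was lower in germ cells than in somatic cells under both treatments, a comparison not used in choosing it. The log2 difference of germ against somatic was -2.61 after saline (SE 0.26, edgeR BH-adjusted p = 2.11e-07) and -2.45 after dex (SE 0.35, edgeR BH-adjusted p = 5.55e-05). Over all genes, 86.1% of the 17941 tested after saline and 84.3% of the 18171 tested after dex differed between the fractions, 7701 and 7675 of them as lower in germ cells. The germ mean of Hdc was 16.2% of the somatic mean after saline and 18.6% after dex. The same share was taken for some lists of markers of other somatic cells, as the median over the genes of a list. Genes counted had a somatic mean of at least 1 CPM after both treatments. From saline to dex it was 0.614% and 0.602% for 7 stromal genes, 0.379% and 0.368% for 6 erythroid genes, 2.51% and 2.29% for 8 endothelial genes, and 4.60% and 12.2% for 11 macrophage genes. Single genes stood far from these medians, with the highest shares for Tek (222% and 322%) and Mrc1 (43.4% and 98.4%). No median was taken for 6 pregranulosa (supporting cell) genes. Their summed germ level was 4.53% of the somatic sum after saline and 7.23% after dex. Foxl2 had the highest share of the 6, at 10.97% and 18.06%, and after dex it was near that of Hdc. The lowest shares were those of Wnt4 after saline (1.82%) and Lgr5 after dex (3.17%). For 4 mast cell genes the median was 27.6% and 15.7%, and the genes ranged from 20.2% to 29.7% after saline and from 14.8% to 19.4% after dex. The part of carried-over somatic cells or free RNA in the Hdc level of the germ libraries was not tested.

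Hnmt, the enzyme gene of intracellular histamine methylation, was detected in the somatic fraction and did not pass the test for a dex effect there. The gene (ENSMUSG00000026986) lies on chromosome 2 from 24002910 to 24049394, minus strand. Its somatic levels were 5.03, 3.42 and 4.19 CPM after saline and 3.38, 4.79 and 4.58 CPM after dex, and the groups overlapped. The log2 fold change was 0.01 (SE 0.25, edgeR BH-adjusted p = 0.987), with means of 4.21 ± 0.808 and 4.25 ± 0.758 CPM (SD, n = 3). In germ cells it had 0, 2 and 0 counts after saline and 0, 3 and 2 counts after dex, all at or under the floor, and it did not pass the low-count filter of that comparison. Set against the floor, Hnmt was at least 23.4-fold higher in somatic than in germ cells after saline and at least 22.4-fold higher after dex, which is given with no test because the gene passed the low-count filter between the fractions through its somatic level alone. The difference between its dex effects in the 2 fractions was 1.23 on the log2 scale (SE 1.17, edgeR BH-adjusted p = 0.665), which rests on those few germ cell counts.

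Both receptor genes were at the limit of detection. Hrh1 (ENSMUSG00000053004, chromosome 6 from 114397936 to 114483296, plus strand) encodes the H1 receptor, which signals through Gq. It had 2, 7 and 4 counts in the somatic dex libraries, 0, 0 and 1 in the somatic saline libraries, and 1 count in all 6 germ libraries together. Each somatic dex library therefore lay above each somatic saline library, but only 2 of them exceeded the 3-count floor and the gene was too low to be tested in any comparison. Hrh2 (ENSMUSG00000034987, chromosome 13 from 54192129 to 54236180, plus strand) encodes the H2 receptor, which signals through Gs, and it had 1 count in all 12 libraries, in somatic saline replicate 3. An antisense gene, Gm16578, overlaps Hrh2, and the strand setting of the counting is not given in the sources used here. At this depth a count of 0 allows up to 0.169 to 0.201 CPM, so low expression of either receptor was not detectable.

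Cpa3, the mast cell carboxypeptidase gene, rose with Hdc in somatic cells. The gene (ENSMUSG00000001865) lies on chromosome 3 from 20215620 to 20242181, minus strand, and a microRNA gene, Mir7007, lies within it. Its somatic levels were 31.3, 25.1 and 22.2 CPM after saline and 94.3, 171 and 60.9 CPM after dex. The groups did not overlap, and dex replicate 2 was again the highest and replicate 3 the lowest of the dex libraries. The mean went from 26.2 ± 4.66 to 109 ± 56.5 CPM (SD, n = 3), which was 4.16-fold (log2 2.06, SE 0.28, edgeR BH-adjusted p = 0.000441). Of the 16556 genes tested in somatic cells 8.18% passed, and 4.81% passed as higher after dex, beside 1 of the 3 members tested there other than Hdc. Among those 3, Mcpt4 was in the fit through its dex level.

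In germ cells Cpa3 did not pass the test. Its levels were 8.53, 2.74 and 10.9 CPM after saline and 14.3, 27.7 and 8.57 CPM after dex, and the groups overlapped because the lowest dex library lay under the highest saline library. The log2 fold change was 1.19 (SE 0.45, edgeR BH-adjusted p = 0.338), and it was 0.63 without germ dex replicate 2. Without the low-count filter Cpa3 passed in germ cells (edgeR BH-adjusted p = 2.14e-08) and in the difference between the fractions (edgeR BH-adjusted p = 0.000113). Only 0.208% of the 16857 genes tested in germ cells passed, 0.089% as higher after dex, and Cpa3 was the sole member other than Hdc that could be tested. The dex effect on Cpa3 in germ cells minus that in somatic cells was -0.87 on the log2 scale (SE 0.60, edgeR BH-adjusted p = 0.526), in a comparison where 1.62% of 19390 genes passed and none of the 3 members tested besides Hdc did. Cpa3 was lower in germ than in somatic cells, by a log2 difference of -1.81 after saline (SE 0.31, edgeR BH-adjusted p = 6.39e-05) and -2.72 after dex (SE 0.43, edgeR BH-adjusted p = 0.000116).

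Mcpt4, a chymase gene of connective tissue mast cells (ENSMUSG00000061068, chromosome 14 from 56059629 to 56062313, minus strand), was measured near the floor. It had 4, 4 and 14 counts in the somatic saline libraries and 13, 26 and 14 in the somatic dex libraries, so saline replicate 3 lay within the dex range. The log2 fold change was 1.16 (SE 0.58) and ranged from 0.80 without dex replicate 2 to 1.98 without saline replicate 3. Its p-value is not given, since the saline libraries alone could not have carried the gene past the low-count filter. Germ libraries had 2, 0 and 3 counts after saline and 3, 6 and 0 after dex, too few to test. No test between the fractions is given for Mcpt4, since it could pass the low-count filter there only through its somatic dex level. Its dex effect in germ cells minus that in somatic cells was -0.27 on the log2 scale (SE 1.56), which rests on those few germ cell counts and is given with no p-value. Reads of Mcpt4 may be shared with the closely related chymase genes next to it, and how such reads were counted is not given in the sources used here.

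Compared per length, Cpa3 was the most abundant member. In FPKM (fragments relative to exon length and library depth, as deposited) the group means in somatic cells after dex were 69.5 for Cpa3, 15.1 for Hdc, 2.32 for Hnmt, 0.898 for Mcpt4 and 0.0546 for Hrh1. After saline they were 16.8 for Cpa3, 3.33 for Hdc, 2.31 for Hnmt and 0.397 for Mcpt4. The length-scaled level of Hdc was thus of the order of that of Hnmt after saline and above it after dex. In germ cells the means after dex were 11.1 FPKM for Cpa3 and 2.91 FPKM for Hdc, against 4.94 and 0.565 FPKM after saline.

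Hdc and Cpa3 followed each other over the 12 libraries, as the plot of both genes shows, but not among the somatic saline libraries. There Hdc stood at 19.1, 23.1 and 23.7 CPM and Cpa3, in the opposite order, at 31.3, 25.1 and 22.2 CPM. Pearson's r of their log2 levels was 0.968 over the 12 libraries and 0.931 after each cell type was centred on its own mean. The points share cell type, treatment and the replicate order described above, so these values describe a pattern and carry no test. The 3 germ saline libraries and somatic saline replicate 1 lay farthest below the line of equal CPM.

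**Figure D2:**
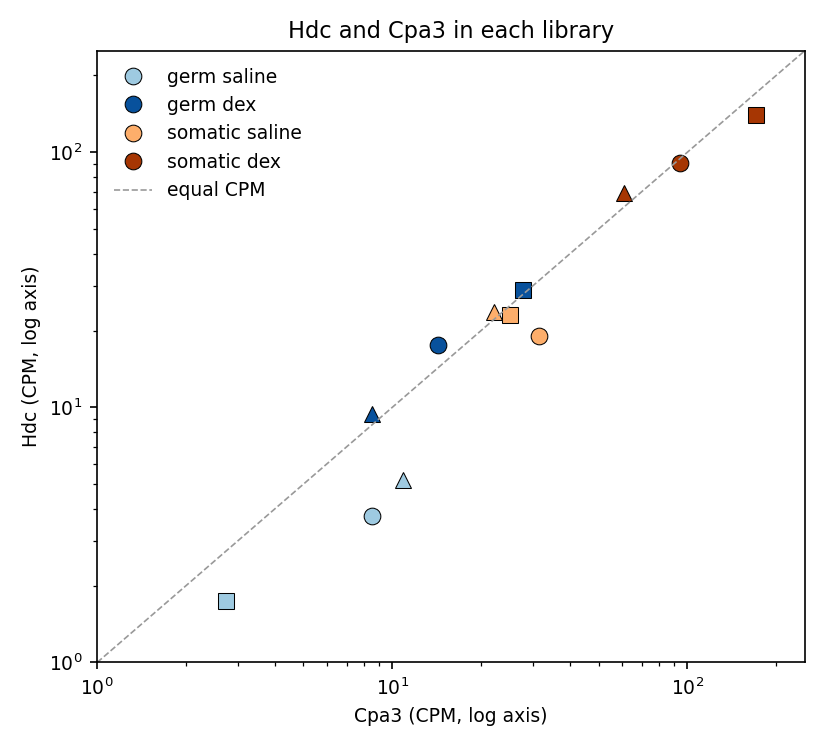
Hdc against Cpa3 in each of 12 libraries (CPM, both axes log), coloured by group, with circles, squares and triangles for replicates 1, 2 and 3 and a dashed line of equal CPM. Both genes ran from under 3 CPM in germ saline replicate 2 to 139.7 CPM (Hdc) and 171 CPM (Cpa3) in somatic dex replicate 2.

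Hdc counts per Cpa3 count in germ cells were 0.439, 0.638 and 0.476 after saline and 1.23, 1.04 and 1.10 after dex, with no overlap. In somatic cells they were 0.608, 0.920 and 1.07 after saline and 0.962, 0.816 and 1.13 after dex, and these ranges overlapped. Per count of the chymase gene Cma1, Hdc was at 0.956, 1.41 and 1.96 in somatic saline and 1.67, 1.58 and 1.85 in somatic dex libraries, again overlapping. Per count of the tryptase gene Tpsb2, it was at 1.14, 1.39 and 1.95 in somatic saline and 2.93, 3.07 and 4.41 in somatic dex libraries, with no overlap. These ratios use the contrast for which Hdc was chosen and were not tested.

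**Figure D3:**
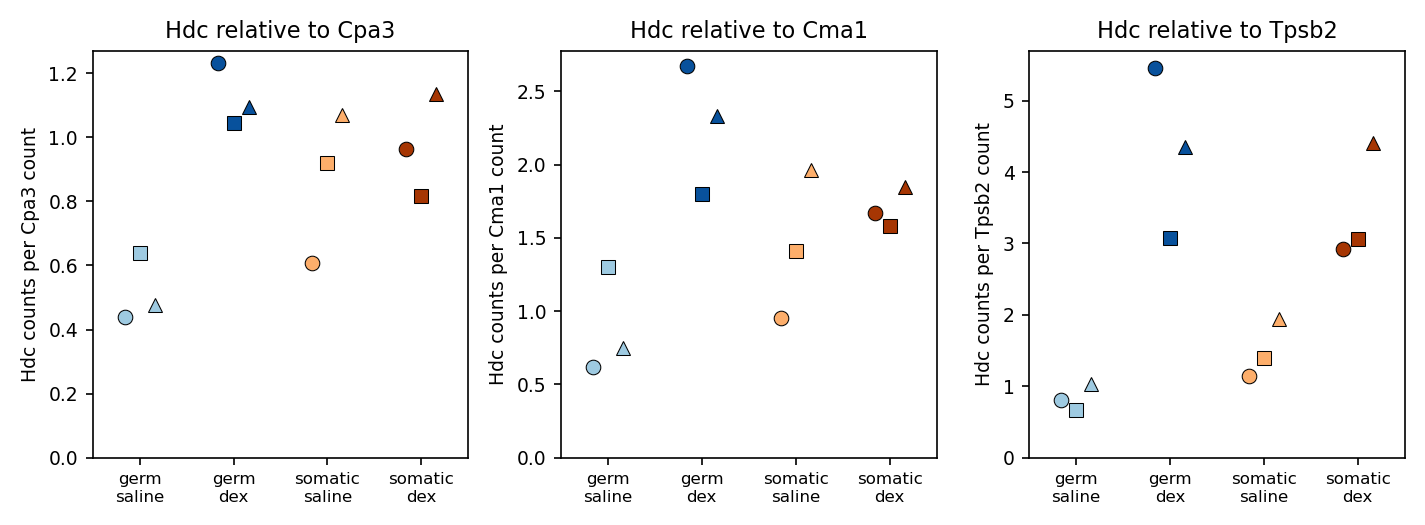
Hdc counts divided by counts of Cpa3, Cma1 or Tpsb2 in the same library (linear axes from 0), with circles, squares and triangles for replicates 1, 2 and 3. In germ cells the dex libraries lay above the saline libraries in all 3 panels, and in somatic cells the ranges overlapped for Cpa3 and Cma1 but not for Tpsb2.

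Other mast cell genes were read beside these members. In a bulk sample, fewer cells of a type and less RNA per cell cannot be told apart, and the same holds for more cells and more RNA. Of 13 genes that define mast cells, Cpa3 and Mcpt4 among them, 5 could be tested in somatic cells, Mcpt4 through its dex level. Of these 5, 3 rose (Cpa3, Cma1 and Tpsb2) and none fell, beside 4.81% of all genes passing as higher. The list was chosen with earlier results of these data known, so this count is a description and not independent evidence. The median log2 fold change was 1.31 against 0.000142 over all genes tested. Cma1 rose from 16.1 ± 3.94 to 60.1 ± 25.9 CPM (SD, n = 3, log2 1.90, SE 0.26, edgeR BH-adjusted p = 0.000405). Tpsb2 went from 15.2 ± 2.57 to 30.7 ± 14.9 CPM (log2 1.02, SE 0.28, edgeR BH-adjusted p = 0.0407), a call that was lost when any one of 5 of the 6 somatic libraries was left out (edgeR BH-adjusted p = 0.0747 to 0.213). The remaining tryptase gene above 1 CPM, Tpsab1, was at 1.86 ± 0.786 and 4.60 ± 2.21 CPM (log2 1.31, SE 0.38, edgeR BH-adjusted p = 0.0533). Mcpt9, Mrgprb1 and Mrgprb2 had no count in any library, and the Fc receptor genes Fcer1a and Ms4a2 had 16 and 30 counts over all 12.

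The 13 genes summed to 71.3, 60.5 and 49.0 CPM in somatic saline and 185, 317 and 119 CPM in somatic dex libraries, which did not overlap. In germ libraries the sums were 20.4, 6.76 and 23.7 CPM after saline and 25.6, 55.2 and 15.9 CPM after dex, which did overlap. Of the 4 mast cell genes that could be tested in germ cells none passed, beside 0.208% of all genes. Their median log2 fold change was 1.04 against 0.014 over all genes. In somatic cells Hdc and the mast cell sum were thus both higher after dex, with the same replicate order among the dex libraries. Among the saline libraries the order was opposite, since Hdc stood at 19.1, 23.1 and 23.7 CPM in replicates 1, 2 and 3. The part of the mast cell sum in the Hdc result was not tested.

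Of 11 genes that mast cells share with other cells, 10 were in the fit of somatic cells, Tph1 through its dex level. Of these, 3 rose and 1 fell (median log2 fold change 0.51). Over all genes tested there 8.18% passed, 4.81% as higher. Il1rl1, the interleukin-33 receptor gene, rose from 3.20 ± 0.444 to 14.7 ± 5.96 CPM (log2 2.20, SE 0.27, edgeR BH-adjusted p = 0.000187). Srgn, the gene of the granule proteoglycan serglycin, rose from 8.22 ± 0.720 to 19.9 ± 9.11 CPM (log2 1.27, SE 0.26, edgeR BH-adjusted p = 0.00720, and 0.0532 without saline replicate 3). Slc18a2, the vesicular monoamine transporter that loads histamine into granules, rose from 5.92 ± 1.27 to 12.9 ± 2.68 CPM (log2 1.12, SE 0.20, edgeR BH-adjusted p = 0.00376). Hpgds, the prostaglandin D2 synthase gene, fell from 6.05 ± 0.903 to 1.43 ± 0.854 CPM (log2 -2.07, SE 0.37, edgeR BH-adjusted p = 0.00305). The genes of this list did not all move one way, and Gata2 (log2 -0.18), Kit (0.34), Rab27b (0.66), Alox5 (0.36) and Slc45a3 (0.06) did not pass. The log2 fold change of Tph1 was 1.48 (SE 0.44), given with no test because of its entry through the dex level.

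**Figure D4:**
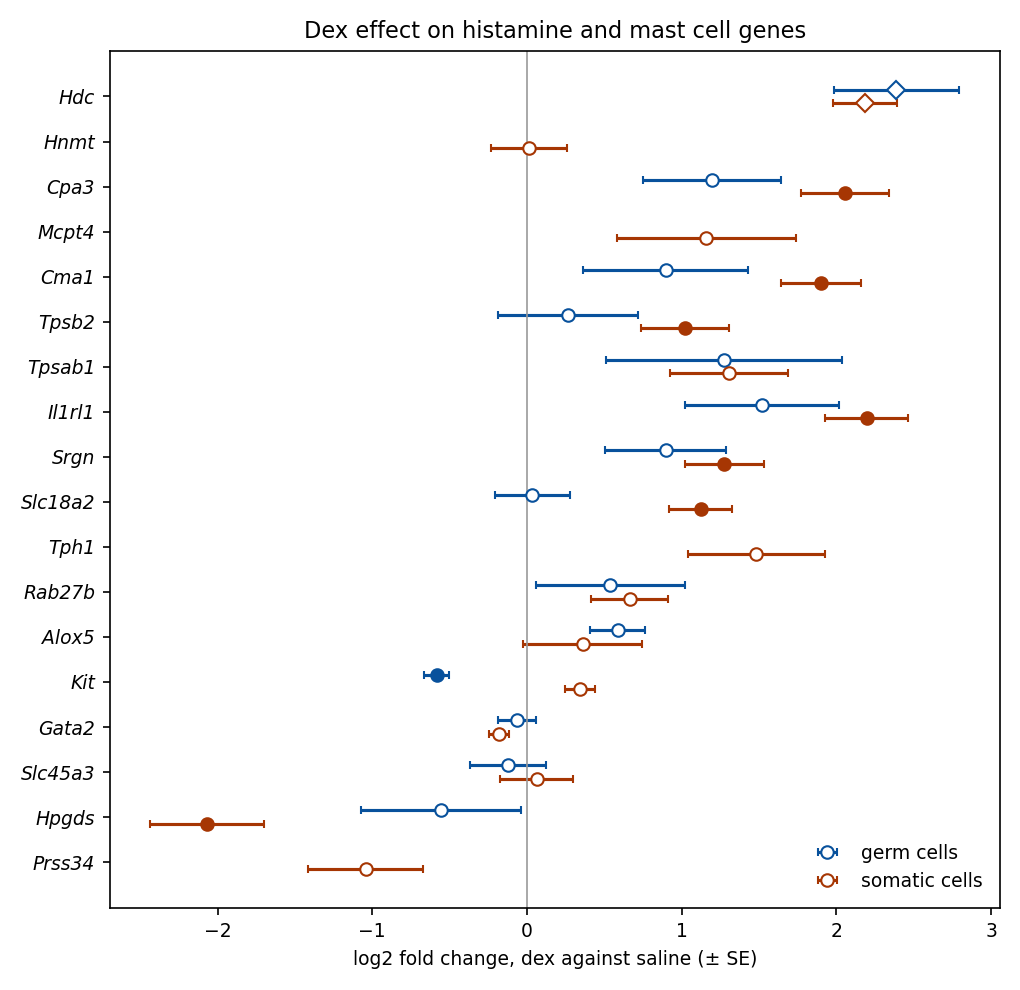
Log2 fold change of dex against saline with its SE for Hdc and other genes of histamine handling and mast cells, in germ cells (blue) and somatic cells (brown). Filled points are genes that passed (edgeR BH-adjusted p at most 0.05) and open points those that did not. Hdc (open diamonds), Mcpt4 and Tph1 (open points) are given with no test. Cpa3, Cma1, Tpsb2, Il1rl1, Srgn and Slc18a2 passed as higher and Hpgds as lower in somatic cells, and Kit alone passed in germ cells, as lower.

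In germ cells 9 of those 11 shared genes were tested and only Kit passed, lower after dex, beside 0.208% of all genes. Kit encodes the stem cell factor receptor and is expressed by germ cells as well as mast cells. Its germ cell levels were 184, 183 and 158 CPM after saline and 106, 123 and 119 CPM after dex (log2 -0.58, SE 0.08, edgeR BH-adjusted p = 0.00958). Kit thus moved against Hdc in germ cells, at a level far above that of the mast cell genes. Il1rl1 was at 1.16 ± 0.564 CPM after saline and 3.33 ± 2.23 CPM after dex in germ cells (log2 1.52, SE 0.50, edgeR BH-adjusted p = 0.284, and 0.00269 without the low-count filter).

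Genes of other blood cells moved in several directions in the somatic fraction, where 8.18% of all genes passed. The 3 basophil genes, of cells that also make histamine, summed to 4.84, 3.80 and 3.40 CPM after saline and 1.87, 3.77 and 1.13 CPM after dex, and neither of the 2 tested passed. The most abundant of them, Prss34, was at 2.97 ± 0.322 and 1.43 ± 0.697 CPM (log2 -1.04, SE 0.37, edgeR BH-adjusted p = 0.118). Of 12 granulocyte genes 9 were tested, with 3 higher (S100a8, S100a9 and Ngp) and 1 lower (Csf3r), and the sum ran from 21.7 to 43.6 CPM after saline and from 44.1 to 89.7 CPM after dex. All 12 macrophage genes were tested, 6 fell (Adgre1, Csf1r, Cx3cr1, Mrc1, Cd68 and Fcgr1) and none rose, with a median log2 fold change of -0.87. Their sum ran from 230 to 307 CPM after saline and from 68.2 to 167 CPM after dex. Of 8 germ cell genes 5 were tested in the somatic libraries and 1 passed, Dazl, which rose from 1.17 ± 0.193 to 12.8 ± 0.133 CPM (log2 3.43, SE 0.21, edgeR BH-adjusted p = 2.92e-07). None of the 6 erythroid genes passed in somatic cells, and their sum was 12456, 10114 and 7388 CPM in saline and 8177, 16492 and 3312 CPM in dex replicates 1, 2 and 3. In germ cells that sum was 32.6, 39.3 and 41.1 CPM after saline and 29.4, 48.6 and 9.91 CPM after dex. Among the dex libraries of both fractions the erythroid sum therefore had the replicate order of Hdc and Cpa3, while among the saline libraries it had that of Cpa3 in somatic cells only and that of Hdc in neither. The part of these values in the Hdc result was not tested.

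**Figure D5:**
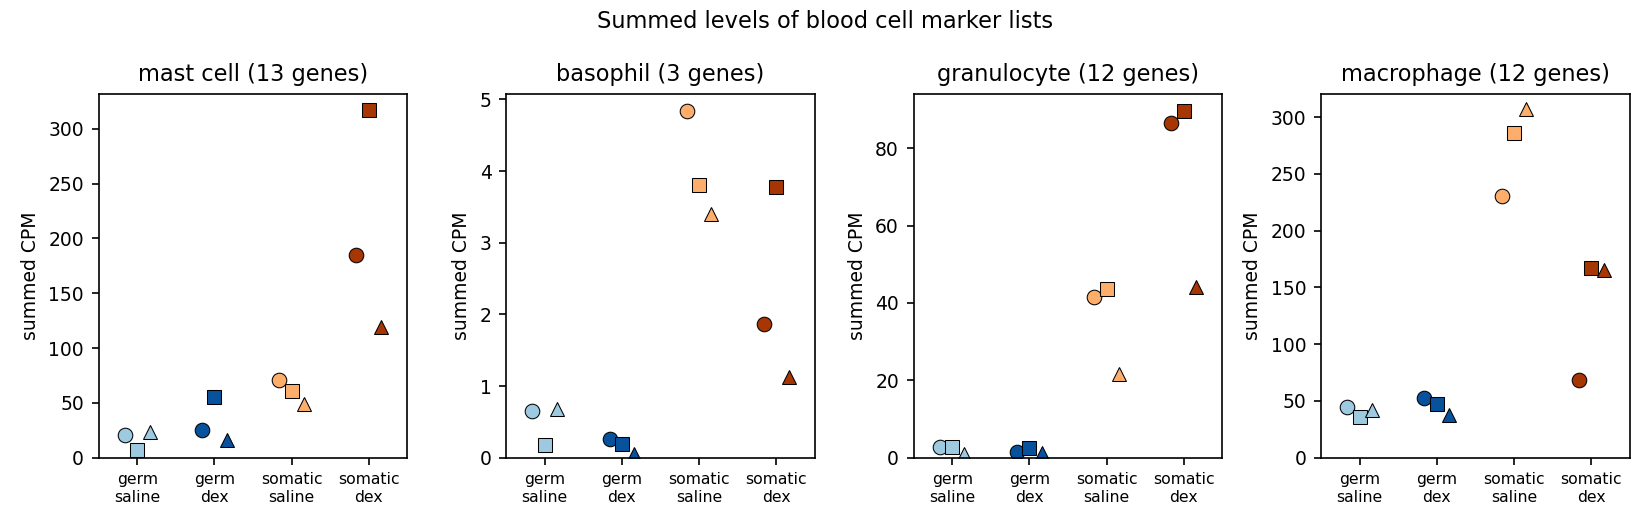
Summed CPM of marker lists of mast cells, basophils, granulocytes and macrophages in each of 12 libraries (linear axes from 0, one scale per panel), with circles, squares and triangles for replicates 1, 2 and 3. In somatic cells the mast cell sum was higher and the macrophage sum lower in all dex libraries than in all saline libraries, while the basophil sums overlapped (1.13 to 3.77 against 3.40 to 4.84 CPM).

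Other genes of histamine handling are given beside the share of all genes, with 1 of 7 tested passing in somatic cells beside 8.18% of all genes, and 0 of 6 in germ cells beside 0.208%. Besides Hnmt, the 4 breakdown genes (Aoc1, Maoa, Maob and Aldh2) were all tested in somatic cells and 3 of them in germ cells, and none passed in either. Of the receptor genes Hrh3 and Hrh4, 1 could be tested in germ cells and none in somatic cells, and none passed. Among 4 transporter genes, 3 were tested in somatic cells and only Slc18a2 passed, and neither of the 2 tested in germ cells did.

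The supply and competing use of histidine and of the enzyme's cofactor were described in the same way. Of 17 genes tested in somatic cells 3 passed, 1 higher and 2 lower, beside 8.18% of all genes. Of 12 genes of histidine transport and use, 10 were tested in somatic cells and 2 passed. Slc7a5, a large neutral amino acid transporter gene, rose from 48.0 ± 4.47 to 64.4 ± 4.08 CPM (log2 0.42, SE 0.09, edgeR BH-adjusted p = 0.00820, and 0.0542 without saline replicate 1). Slc15a3, a lysosomal histidine and peptide transporter gene, fell from 5.23 ± 2.22 to 2.04 ± 0.410 CPM (log2 -1.36, SE 0.34, edgeR BH-adjusted p = 0.0259, and 0.0772 to 0.155 with dex replicate 2 or either of saline replicates 2 and 3 left out). Of 8 other genes in a list of pyridoxal phosphate decarboxylases and related enzymes, 5 were tested in somatic cells and only Odc1, the ornithine decarboxylase gene, passed, with 189 ± 14.2 CPM after saline and 148 ± 4.04 CPM after dex (log2 -0.35, SE 0.07, edgeR BH-adjusted p = 0.00537). Neither of the 2 genes that supply the cofactor passed, and no gene of these lists passed in germ cells or in the difference between the fractions. None of the other decarboxylase genes tested passed as higher in either fraction. Their highest log2 fold changes were 0.60 for Ddc in somatic cells and 0.34 for Sgpl1 in germ cells.

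The genes whose pattern was most like that of Hdc were named by Pearson's r of log2 CPM among 19389 genes. Over the 12 libraries they were Gm11827 (r = 0.974), Il1rl1 (0.974), Per1 (0.972), Cpa3 (0.968) and Gm37691 (0.958), and Mcpt4 ranked 72 and Hnmt 2802. After each cell type was centred on its own mean they were Il1rl1 (0.955), Cldn1 (0.947), Per1 (0.947), Gm11827 (0.945) and Gm37195 (0.935), with Cpa3 at rank 7, Mcpt4 at 315 and Hnmt at 6734. The libraries behind each r share cell type, treatment and depth, and the lists depended on the measure, since Spearman's rho kept 2 of each 5. Gm11827, annotated as a long noncoding RNA gene, was at 0.136 ± 0.130 and 1.37 ± 0.506 CPM in germ cells and 1.70 ± 0.483 and 6.57 ± 1.34 CPM in somatic cells after saline and dex. Cldn1, a tight junction gene, showed a like shape at a different balance of the fractions, with 0.217 ± 0.172 and 0.794 ± 0.620 CPM in germ cells and 24.7 ± 2.31 and 79.8 ± 9.88 CPM in somatic cells.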

How the data were processed

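The authors deposited raw counts of fragments per gene for 54532 genes and FPKM values computed from them. The submitters' processing notes name HISAT2 2.0.5, featureCounts 1.5.0-p3 and DESeq2 1.20.0 with mm10, and the strand setting is not given in the sources used here. Gene coordinates equalled those of GENCODE M21 (GRCm38) for 98.3% of shared identifiers. Tables of the authors' own comparisons (fold changes and p-values) were not used. Counts were tested over the whole table with edgeR 4.0.16 (R 4.3.3): quasi-likelihood test, TMM scaling, filterByExpr, no covariate, Benjamini-Hochberg (BH) adjustment over all genes tested, adjusted p at most 0.05 and no fold minimum. Dex was compared with saline within each cell type (6 libraries), the difference of these effects was tested over 12 libraries, and germ was compared with somatic cells within each treatment (6 libraries). The code was tested on simulated data. Samples were grouped by their labels, which call replicates biological. Replicates differed by 5.11 to 19.8 in chi-square per degree of freedom, so none were duplicates. Depth was 14658503 to 18245507 counts, and the 3-count floor covers counting error only.

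The members and gene lists were chosen with earlier results of these data known. All 6 members are named throughout. Other genes of histamine handling are named where they passed a dex test, mast cell and basophil genes where a group mean reached 1 CPM or they passed, and the 5 genes most like Hdc by Pearson's r of log2 CPM (prior count 2). Genes of the granulocyte, macrophage and germ cell lists were named as those that passed. Tek, Mrc1, Foxl2, Wnt4 and Lgr5 were named after their values were seen. Alternatives were median-ratio scaling, no low-count filter, DESeq2 1.42.0, a replicate block, 1 fit of all 12 libraries and leaving out each library. Promoter sequences came from RefSeq (GRCm38.p6). Figures were drawn with matplotlib.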

Additional observations from a re-analysis of the deposited data

Results flagged for a closer look

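The dex effect on Kit differed between the cell types, which a test of the difference itself showed. Germ minus somatic, it was -0.94 on the log2 scale (SE 0.13, edgeR BH-adjusted p = 0.000955, 12 libraries). Kit went from 175 ± 14.4 to 116 ± 8.97 CPM in germ cells (edgeR BH-adjusted p = 0.00958) and from 31.3 ± 3.70 to 39.8 ± 1.68 CPM in somatic cells (edgeR BH-adjusted p = 0.0511, SD, n = 3), with all 3 dex libraries below the saline libraries in germ cells and above them in somatic cells.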

How the results depend on the processing

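Cpa3 passed in somatic cells under all alternatives run, with log2 fold changes of 1.55 to 2.34, and it was the 1 member called, Hdc not being counted. The counts of genes called depended on the settings. In germ cells 35 genes passed, 420 without the low-count filter, 158 with DESeq2, 64 in 1 fit of all 12 libraries and 17 to 81 with 1 library left out (81 without dex replicate 1, 17 without dex replicate 2 or saline replicate 3). In somatic cells 1354 passed, 803 in the fit of 12 libraries and 754 to 1881 with 1 library left out (under 900 without dex replicate 2 or any saline replicate). For the difference 314 passed, 727 without the filter, 620 with DESeq2 and 143 to 383 with 1 library left out (200 or fewer without germ dex replicate 2 or 3, germ saline replicate 3, somatic dex replicate 1 or 2, or somatic saline replicate 2 or 3). Without the filter Cpa3 was also the 1 member called in germ cells and in the difference. In edgeR fits across all genes its adjusted p was then 2.14e-08 (log2 1.18) and 0.000113 (log2 -0.88), where the other settings gave an adjusted p of 0.299 to 0.746 and 0.288 to 0.832. The cause was not tested. The Hdc difference of 0.19 turned to -0.27 without germ dex replicate 2, -0.14 without germ saline replicate 2 and -0.01 without somatic dex replicate 3, and reached 0.60 at most. The other values under the alternatives were single-gene fold changes, dex to saline ratios of mean levels and the lists of genes most like Hdc. Of these, 1115 were labelled the same, 21 lost a call, 21 gained one and 2 moved, which were the lists by Spearman's rho. A fold change that passed in neither setting was labelled the same even if its sign turned. Tpsb2 in somatic cells also lost its call with DESeq2 (adjusted p = 0.183) and in the fit of 12 libraries (edgeR BH-adjusted p = 0.167). Slc15a3 lost it in the fit of 12 libraries, and Srgn, Slc7a5 and Slc15a3 with the libraries named beside them. Between the fractions after dex, Hpgds lost its call as lower in germ cells under 8 of 11 alternatives (log2 -1.74 to -0.84 over the 11). Calls were gained in germ cells by Cma1 and Il1rl1 without the filter (edgeR BH-adjusted p = 0.00857 and 0.00269) and by Odc1 with DESeq2 (adjusted p = 0.0147). In somatic cells they were gained by Tpsab1 under 5 alternatives, Kit under 3 and Prss34 without dex replicate 2, and in the difference by Cma1 and Slc18a2 without the filter. Tph1 was labelled as gaining a call in somatic cells under 2, which is not read as a result since its dex level brought it into the fit. Slc18a2 and Slc45a3 gained one between the fractions after saline with 1 library left out.

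The labels tie a replicate number to no shared litter, and the correlation of deviations of same-numbered libraries did not pass 0.1 in every pair of any comparison. Between dex and saline it ran from -0.0097 to 0.13. With a replicate block 49 genes passed in germ cells, 1520 in somatic cells and 389 in the difference, and the calls of the members did not change. Between germ and somatic cells the correlation ran from 0.054 to 0.099 and every library correlated best with its own number. This is a hint from the data, not the design, of a shared source. The block used for the difference paired dex with saline libraries within a cell type. A source shared by germ and somatic libraries was therefore modelled in no fit of the difference. Depth limits Hrh1, Hrh2, Mcpt4 and the germ cell values of Hnmt.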
